A study of Rattus norvegicus with 4 samples.

Results

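Interleukins are the secreted messengers by which leukocytes and tissue cells steer immune reactions, and the genes for these ligands and for their receptors were followed here in the livers of 4 rats. The members are the genes whose symbol starts with Il and a digit. Of 16992 annotated genes, 73 met this definition: 33 ligands, 4 antagonists or soluble binding proteins, and 36 receptors. Male wild-type Wistar rats, 6 weeks old at purchase, breathed 4.5% sevoflurane or 6% desflurane with 50% oxygen through nose cones, after food and water had been withheld. In the sevoflurane 6 h and desflurane 6 h groups the state was held for 6 hours. In the sevoflurane control and desflurane control groups the rat was killed as soon as consciousness was lost, so that the controls had also inhaled the agent. Each group is 1 liver, from 1 rat and in 1 library, so no difference can be checked against replicates within these libraries, and no test or p-value is given.

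Interleukins of the IL-1 family are made as precursors, act through receptors that share an accessory chain, and are held back by decoy and antagonist proteins. Those of the common gamma chain group, such as IL-2, IL-7, and IL-15, keep lymphocytes and natural killer cells alive and signal through JAK kinases and STAT factors. IL-6 binds its own receptor chain together with the shared signal transducer gp130, and in hepatocytes it is the classical inducer of acute phase proteins. The liver is unusual in that its main cell type is rich in receptors for such signals, whereas the ligands come largely from Kupffer cells, lymphocytes, endothelial cells, and stellate cells.

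Levels are given as TPM (transcripts scaled to a fixed library total), which accounts for gene length and thus permits levels of different genes to be compared. Of the 73 members, 30 (41.1%) were above 1 TPM in at least 1 library and 26 (35.6%) in all 4, against 64% and 58.6% of all annotated genes. In the single libraries, 28 and 29 members passed 1 TPM in the controls of sevoflurane and desflurane, and 26 in each 6 h liver. The corresponding shares of all genes were 60.9% and 61.5% in these controls and 60.6% and 62% in the 6 h livers. Receptors were expressed more often than ligands: 18 of 36 receptors and 10 of 33 ligands reached 1 TPM in at least 1 library, as did 2 of the 4 antagonists. At 10 TPM the counts were 9 receptors, 2 ligands, and 2 antagonists.

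Summed over all 36 receptors, the level was 448 TPM for the control of sevoflurane and 449 TPM for the liver exposed to it for 6 hours, and 408 and 587 TPM for the desflurane pair. Summed over the 33 ligands it was 122 and 52.9 TPM for sevoflurane and 84.1 and 91.5 TPM for desflurane, and 44.1, 24.4, 34.3, and 41.0 TPM in the same libraries without *Il33*, the most abundant ligand. The receptor sum was thus highest in the liver held under desflurane, and the ligand sum was lowest in the liver held under sevoflurane, with or without *Il33*.

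All 4 libraries listed 12 members at 0, of which 11 were ligands. These included *Il2* and *Il4*, which are T cell products, and *Il6*, the ligand of the receptor pair described below. *Il10*, an anti-inflammatory ligand of macrophages and T cells, had TPM values of 0.841, 0.0572, 0.294, and 0.109, and *Il1rl1*, the IL-33 receptor, of 0.388, 0.310, 0.282, and 0.253, in the order sevoflurane control, sevoflurane 6 h, desflurane control, and desflurane 6 h. This order is used for every series of 4 values that follows. Read counts were not used. The depth behind a value is given by coverage, the mean number of reads over each exon base, which for members above 1 TPM had a median of 11.5 to 15.2 per library and a lowest value of 1.72 to 3.04. Levels below 1 TPM rest on a coverage below 2 and are given as values only.

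**Figure D1:**
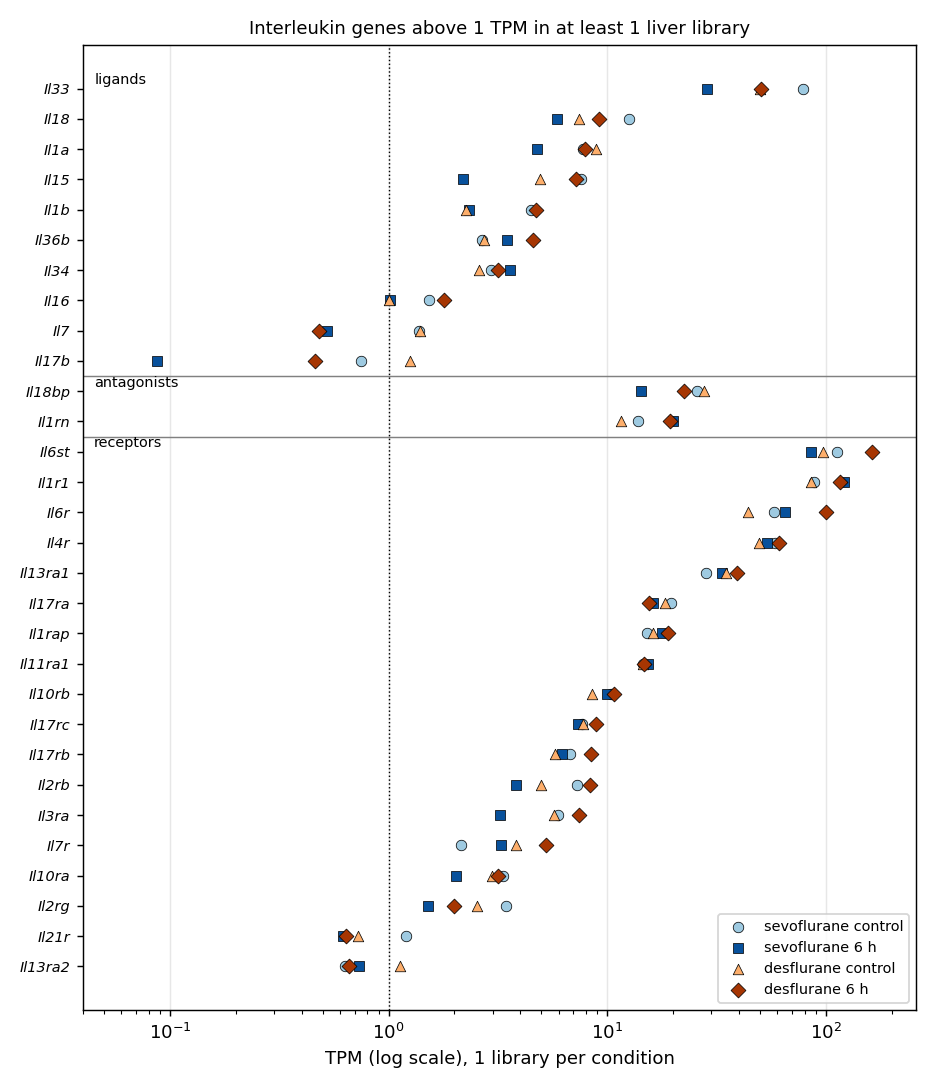
TPM values (log scale) of the 30 interleukin genes above 1 TPM in at least 1 library, with 1 symbol per library and the genes ordered by class and mean level. Receptors reach 163 TPM (*Il6st*), *Il33* stands above all other ligands, and the dark blue squares of the liver held under sevoflurane lie lowest for *Il33*, *Il18*, *Il1a*, and *Il15*.

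A gene was called when the larger of its values exceeded 2 TPM and the libraries differed by more than 2-fold. This is a limit of size and not a statistical test, and shares are given of the genes that were able to pass, which are those above 2 TPM in the library of reference. After 6 hours of sevoflurane, 4 of 25 members (16%) fell by this rule against the own control, compared with 3.38% of all genes, and 0 of 24 rose, compared with 2.3%. The 4 members were the ligands *Il15*, *Il33*, and *Il18* and the receptor *Il2rg*, which is 3 of 7 ligands and 1 of 16 receptors able to pass. After 6 hours of desflurane, 2 of 24 members (8.33%) rose against the own control, namely the receptor *Il6r* and the ligand *Il1b*, compared with 2.84% of all genes, and 0 of 25 fell, compared with 1.53%. The count for desflurane was 1 after median-of-ratios scaling, in which *Il6r* was the member left. In whole liver, fewer cells of a type and less RNA in each cell cannot be told apart.

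**Figure D2:**
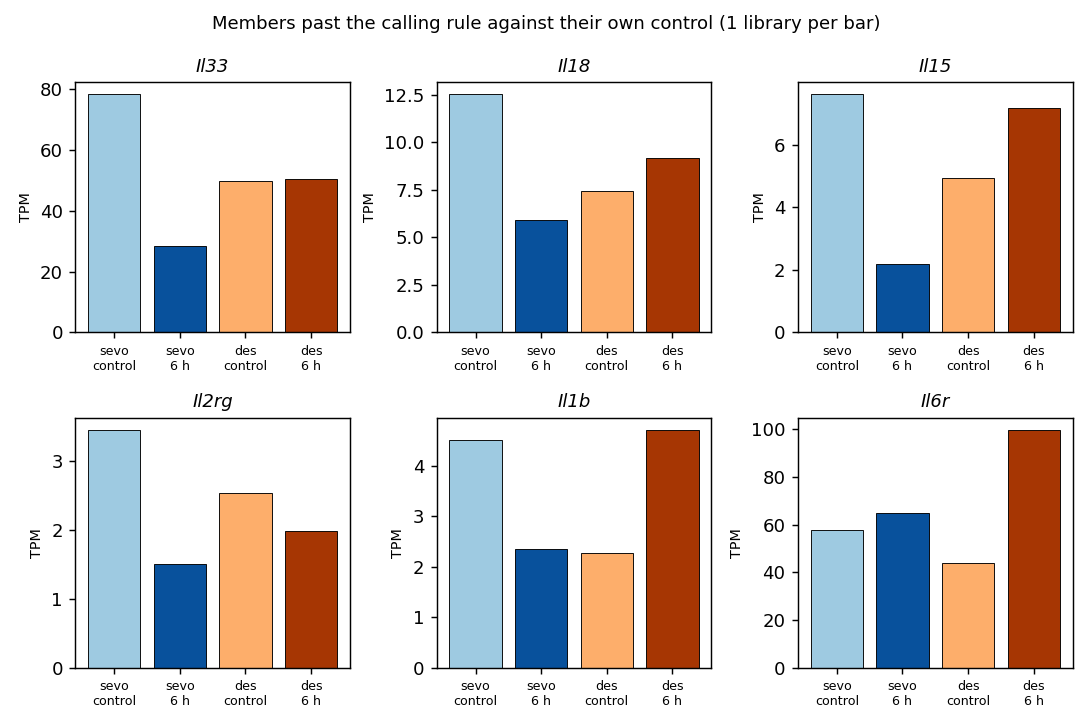
TPM values (linear axes starting at 0) of the 6 members called against their own control, with 1 bar per library. *Il15* was 7.62 TPM in the sevoflurane control and 2.19 after 6 hours of sevoflurane, and for desflurane *Il6r* was 44.1 TPM in the control and 99.8 TPM at 6 hours.

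IL-33 is stored in the nuclei of stromal cells and released as an alarm signal. *Il33* (chr1:248132090-248147030, plus strand, rn6) had TPM values of 78.4, 28.5, 49.8, and 50.5. The liver held under sevoflurane was the lowest of the 4 and its own control the highest, with the desflurane pair lying close together between them. The fold change was 0.364 with sevoflurane and 1.01 with desflurane against the own control, and 0.573 and 0.644 against the control of the other agent, so the fall with sevoflurane passed the 2-fold limit against its own control and not against the desflurane control.

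The files also hold a set of assembled rows, whose ends can differ from those of the annotated gene. They come from the same reads, and for some members their ends and values are those of the annotated row, so they are no independent measurement. The assembled row on the same strand had 79.9, 46.3, 52.9, and 52.9 TPM, which is a fold change of 0.579 with sevoflurane. In the libraries of sevoflurane 6 h and the desflurane control this row started 19.4 kb upstream of the annotated start and spanned 34.4 and 34.3 kb. In the libraries of the sevoflurane control and of desflurane 6 h it started 2.5 kb downstream of the annotated start and spanned 12.3 and 12.4 kb. The annotated row therefore left out part of the assembled transcript in 2 of the libraries, and the size of the fall with sevoflurane depended on which row was read. RefSeq lists 2 promoters of *Il33* that lie 19.4 kb apart in the newer GRCr8 build. Both are printed because the assembled rows started at different places in different libraries. They run 5′ to 3′ on the gene strand from 250 bases before to 50 bases after each start, and capitals mark a TATAAA box.
Il33 upstream promoter, chr1:237115323-237115622 (GRCr8, plus strand): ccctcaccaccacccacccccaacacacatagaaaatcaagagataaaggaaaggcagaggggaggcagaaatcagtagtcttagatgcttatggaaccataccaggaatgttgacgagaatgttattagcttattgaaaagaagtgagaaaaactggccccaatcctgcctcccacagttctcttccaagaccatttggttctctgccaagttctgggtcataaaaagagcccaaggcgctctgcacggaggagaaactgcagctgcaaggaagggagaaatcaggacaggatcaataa
Il33 downstream promoter, chr1:237134696-237134995 (GRCr8, plus strand): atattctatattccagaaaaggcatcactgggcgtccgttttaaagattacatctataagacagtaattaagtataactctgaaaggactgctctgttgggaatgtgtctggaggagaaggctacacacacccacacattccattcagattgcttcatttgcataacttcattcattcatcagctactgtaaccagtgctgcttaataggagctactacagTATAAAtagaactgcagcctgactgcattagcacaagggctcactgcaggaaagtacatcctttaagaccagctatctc
The box TATAAA, searched on the gene strand, starts 29 bases before the downstream start and was not found in the upstream window. It was present in 8.8% of all 33469 promoters of this length.

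IL-18 is an inducer of interferon gamma that is cleaved from its precursor by caspase-1, and in the liver it is mainly a product of Kupffer cells. *Il18* had TPM values of 12.5, 5.92, 7.42, and 9.20. The sevoflurane pair formed the extremes and the desflurane pair lay between them. The fold change was 0.472 with sevoflurane and 1.24 with desflurane, but 0.798 and 0.734 against the other control. Its soluble inhibitor *Il18bp* had 25.7, 14.2, 27.8, and 22.4 TPM, with fold changes of 0.554 and 0.808 against the own control and 0.513 and 0.873 against the other one, all under the 2-fold limit. The inhibitor exceeded the ligand in every library, by a ratio of 2.05, 2.41, 3.74, and 2.44. The receptor *Il18r1* was below 1 TPM throughout, with at most 0.183.

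For one ligand of the classical IL-1 receptor, the size of the change depended on the control. *Il1b*, a cytokine of activated macrophages, had TPM values of 4.50, 2.34, 2.26, and 4.71. The sevoflurane control and the liver held under desflurane were thus nearly level, and so were the remaining libraries. The rise of 2.08-fold with desflurane was set against the lower control, and against the sevoflurane control the fold change was 1.05. With sevoflurane it was 0.521 against the own control and 1.04 against the other one. *Il1a*, which encodes the form that acts from inside damaged cells, had 7.75, 4.76, 8.85, and 7.94 TPM and was lowest after 6 hours of sevoflurane, with fold changes of 0.614 and 0.537 against the own and the other control.

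The antagonist and both receptor chains of IL-1 had higher values in the 6 h livers than in the controls, by less than 2-fold. The same order was found in 26.9% of the members and in 32.8% of all genes with a mean above 1 TPM, so it does not set these genes apart. *Il1rn*, the secreted antagonist that occupies the receptor, had 13.8, 19.97, 11.5, and 19.4 TPM. Both 6 h livers were above both controls, with fold changes of 1.45 for sevoflurane and 1.68 for desflurane. *Il1r1*, the signaling receptor, had 88.6, 121, 85.5, and 116 TPM, and the fold changes were 1.36 and 1.35. *Il1rap*, the accessory chain, had 15.2, 17.8, 16.2, and 18.9 TPM. None of the 3 genes reached 2-fold in any comparison with a control. The ratio of the antagonist to its competing ligands *Il1a* and *Il1b* together was 1.13, 2.81, 1.04, and 1.53. It was highest in the liver held under sevoflurane, where the antagonist was high and both ligands were low.

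*Il36b*, a cytokine best known from epithelia, had 2.67, 3.47, 2.72, and 4.60 TPM. Its row is uncertain, since assembled rows at this place spanned 136.7 kb after sevoflurane, 96.8 kb after desflurane, and 92.0 kb in the control of desflurane, although the annotated gene spans 4847 bases.

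IL-15 is presented to natural killer and memory T cells by the cells that make it, and its transcription is classically driven by interferon. *Il15* (chr19:23542889-23554594, minus strand, rn6) had TPM values of 7.62, 2.19, 4.93, and 7.17, with a coverage of 13.7, 3.70, 9.24, and 12.1. The liver held under sevoflurane was the lowest of the 4 by a wide margin, and the liver held under desflurane was close to the sevoflurane control. The fold change with sevoflurane was 0.287 against its own control and 0.444 against the desflurane control. *Il15* was the single member that passed the rule with 1 agent against each of the controls. With desflurane the fold changes were 1.45 and 0.942. The highest assembled row of the locus had 8.25, 3.40, 5.66, and 8.78 TPM, a fold change of 0.412 with sevoflurane. Assembled rows of the locus started 54.7 to 54.8 kb upstream of the annotated start in 3 libraries and 15.7 kb upstream after 6 hours of desflurane, and the annotated row, 11706 bases long, holds no exon there.

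The promoter that RefSeq lists for *Il15* is printed because this ligand had the lowest fold change among the called members. It runs 5′ to 3′ on the gene strand from 250 bases before to 50 bases after the start, and capitals mark a match to the core of an interferon-stimulated response element. Which of the starts was used in these livers was not determined.
Il15 promoter, chr19:42544456-42544755 (GRCr8, plus strand): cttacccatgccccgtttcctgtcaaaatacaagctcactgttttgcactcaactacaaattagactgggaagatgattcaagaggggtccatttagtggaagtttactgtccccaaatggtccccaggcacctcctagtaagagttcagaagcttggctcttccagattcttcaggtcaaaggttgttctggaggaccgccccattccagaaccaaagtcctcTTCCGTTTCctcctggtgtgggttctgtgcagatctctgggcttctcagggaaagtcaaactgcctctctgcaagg
The letters searched were GAAANNGAA on either strand. The match, TTCCGTTTC, starts 26 bases before the start and lies on the opposite strand. This core was present in 9.71% of all promoters of this length and in 8 of the 57 members with a promoter in the table (14%), among them *Il18bp*, *Il1rap*, and *Il6st*. The motif TTCNNNGAA, a STAT site that can overlap it in letters, searched on either strand, was present in 8.87% of all promoters and in 6 of the 57 members. The kB motif GGGANTTTC, also on either strand, was present in 1.15% of all promoters and in 1 member, *Il6*. The shares of all promoters count each promoter singly, whereas a member was counted if any of its promoters matched. The shares therefore have unlike units. Besides the response element core, none of these motifs was found in the window of *Il15*, and none at all in those of *Il18*, *Il2rg*, and *Il6r*.

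The beta and gamma chains of the IL-15 receptor also had their lowest values in the liver held under sevoflurane. *Il15ra*, which encodes the alpha chain, was not among the annotated genes used here, so no value is given for it. *Il2rg*, the common gamma chain itself, had 3.45, 1.51, 2.54, and 1.99 TPM with a coverage of 6.20, 2.55, 4.75, and 3.35. Its fold change was 0.437 with sevoflurane and 0.783 with desflurane against the own control, and 0.594 and 0.576 against the other one. *Il2rb*, the beta chain shared by IL-2 and IL-15, had 7.26, 3.83, 4.96, and 8.36 TPM. Its fold changes of 0.528 with sevoflurane and 1.69 with desflurane were under the limit, and after 6 hours it was 2.18-fold higher in the desflurane than in the sevoflurane liver.

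*Il7*, which sustains lymphocytes, had 1.38, 0.523, 1.39, and 0.480 TPM. The controls were level with each other and so were the 6 h livers, and the fold change was 0.379 with sevoflurane and 0.345 with desflurane. It was not able to pass the rule, because its controls were below 2 TPM, and the coverage was 2.48 and 2.60 in the controls and 0.886 and 0.808 in the 6 h livers. Its receptor *Il7r* had 2.15, 3.28, 3.83, and 5.24 TPM and was 2.43-fold higher in the desflurane 6 h liver than in the sevoflurane control, whereas the fold changes against the own control were 1.53 with sevoflurane and 1.37 with desflurane.

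The chains that receive IL-4 and IL-13 were among the most abundant members. *Il4r* had 58.3, 53.9, 49.4, and 61.0 TPM, and *Il13ra1* had 28.3, 33.6, 34.9, and 39.3 TPM. All fold changes of these chains against a control lay between 0.925 and 1.39. *Il21r*, which was above 1 TPM in the sevoflurane control alone, had 1.20, 0.620, 0.722, and 0.641 TPM. *Il13ra2*, a decoy for IL-13, had 0.630, 0.734, 1.13, and 0.660 TPM.

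The pair that receives IL-6 was abundant while the ligand was listed at 0 in every library. *Il6r* (chr2:189205699-189254552, minus strand, rn6) had TPM values of 57.8, 64.9, 44.1, and 99.8. The liver held under desflurane was the highest and its own control the lowest. The rise with desflurane was 2.27-fold against the own control and 1.73-fold against the sevoflurane control, and with sevoflurane the fold changes were 1.12 and 1.47. *Il6st*, which encodes gp130, had 112, 85.9, 97.2, and 163 TPM. It was the most abundant member in 3 of the libraries and second to *Il1r1* in the sevoflurane 6 h liver. Its fold change was 1.68 with desflurane and 0.764 with sevoflurane. The ratio of *Il6st* to *Il6r* was 1.95, 1.32, 2.21, and 1.64. *Il11ra1*, which also signals through gp130 and overlaps *Ccl27* on the opposite strand, stayed within 14.5 to 15.4 TPM, the smallest ratio of highest to lowest value among the 30 members above 1 TPM. The other members among the receptor chains of the IL-6 and IL-12 group were below 1 TPM. This holds for Il symbols only. Of related receptors without an Il symbol, *Lifr* had 44.4, 41.8, 54.1, and 66.0 TPM and *Osmr* had 3.07, 3.73, 3.23, and 5.08 TPM.

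The remaining receptors were those of IL-10, IL-17, and IL-3. *Il10rb*, a chain shared within the IL-10 group, had 10.4, 9.93, 8.54, and 10.7 TPM, and *Il10ra* had 3.33, 2.02, 2.98, and 3.18 TPM. *Il17ra*, the common chain of the IL-17 receptors, had 19.6, 16.2, 18.4, and 15.5 TPM, with both 6 h livers below both controls and fold changes of 0.824 and 0.843. *Il17rc* had 7.63, 7.36, 7.76, and 8.87 TPM and *Il17rb* had 6.77, 6.20, 5.78, and 8.42 TPM. *Il3ra*, found on plasmacytoid dendritic cells and basophils, had 5.94, 3.24, 5.70, and 7.42 TPM. It was lowest after 6 hours of sevoflurane, with a fold change of 0.545, and was 2.29-fold higher in the desflurane 6 h than in the sevoflurane 6 h liver.

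Of the remaining ligands, *Il34*, which sustains macrophages through the receptor Csf1r, had 2.95, 3.61, 2.59, and 3.16 TPM. *Il16* had 1.53, 1.01, 1.01, and 1.802 TPM, and *Il17b* had 0.744, 0.0868, 1.25, and 0.461 TPM. No ligand of the IL-6 and IL-12 group, the IL-10 group, or the IL-3 and IL-5 group reached 1 TPM in any library.

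**Figure D3:**
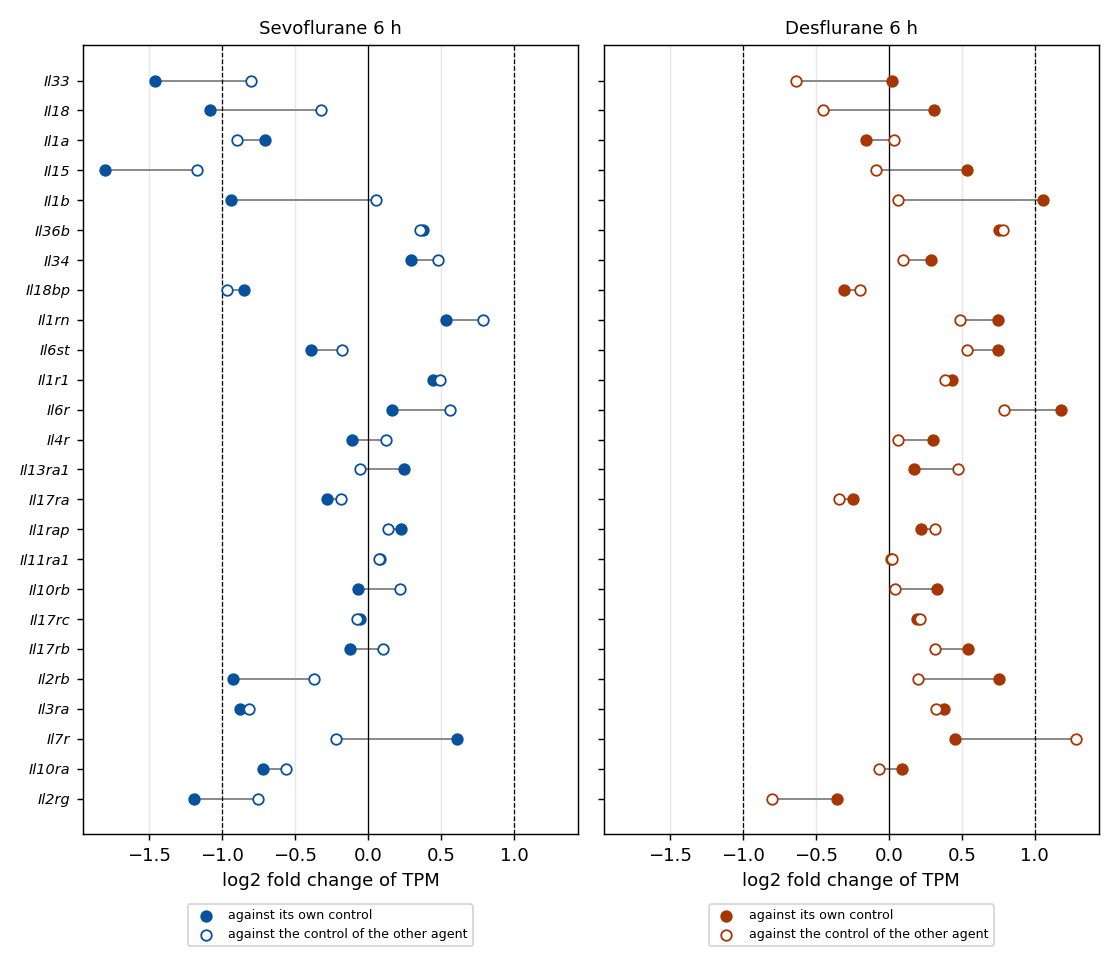
log2 fold changes of TPM for the 25 members above 2 TPM in at least 1 library, after 6 hours of sevoflurane (left) or desflurane (right), with filled circles against the own control, open circles against the control of the other agent, and dashed lines at 2-fold. Only *Il15* lies outside the dashed lines with both circles, and the 2 circles of *Il1b* are about 1 unit apart with either agent.

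Several of these calls depended on the control. Against the control of the other agent, 1 of 25 members (*Il15*, 4%) fell with sevoflurane and 1 of 24 (*Il7r*, 4.17%) rose with desflurane, compared with 2.64% and 2.89% of all genes. In the opposite directions the counts were 0 of 24 and 0 of 25, compared with 2.6% and 1.64%. These shares are close to those of all genes. Between the controls themselves, 0 of 25 members were called in either direction, compared with 1.19% of all genes higher and 1.2% lower in the desflurane control. The nearest to the limit was *Il1b*, with a fold change of 0.503, and 18 of the 26 members with a mean above 1 TPM were lower in the desflurane control, which is 69.2% compared with 53.9% of all genes. In FPKM the shares were 88.5% and 78.4%.

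Setting the 6 h livers against each other uses no control. Here 4 of 24 members (16.7%) were higher with desflurane, compared with 2.8% of all genes, and 0 of 24 were lower, compared with 1.21%. The 4 were *Il15* (3.28-fold), *Il3ra* (2.29-fold), *Il2rb* (2.18-fold), and *Il1b* (2.01-fold). Of the 26 members with a mean above 1 TPM, 21 were higher in the desflurane liver, which is 80.8% compared with 58.8% of all genes. After median-of-ratios scaling the count was again 21 of 26, compared with 52.0% of all genes, and in FPKM it was 18 of 26 (69.2%), compared with 33.7%.

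Among the same 26 members, 17 were lower after sevoflurane than in the own control and 22 were higher after desflurane, which is 65.4% and 84.6% compared with 43.8% and 66.0% of all genes. With median-of-ratios scaling the members' shares were 65.4% and 73.1% and those of all genes 49.9% and 49.4%. Against the control of the other agent these shares were smaller in TPM. Here 14 of the 26 members were lower after sevoflurane and 19 were higher after desflurane, which is 53.8% and 73.1% compared with 42.8% and 64.1% of all genes. For desflurane, 13 of 26 remained higher with median-of-ratios scaling (50% compared with 50.4% of all genes) and 10 of 26 in FPKM (38.5% compared with 32.3%). For sevoflurane, 17 of 26 were lower with median-of-ratios scaling (65.4% compared with 51.5%) and 12 of 26 in FPKM (46.2% compared with 30.0%). Over all 73 members, the median log2 change with 1 TPM added to each value was -0.05 with sevoflurane and 0.00 with desflurane, compared with 0.00 and 0.01 over all genes. Among the 9136 genes above 2 TPM in every library, sevoflurane shifted the median by 0.05 and desflurane by 0.12 on the log2 scale. The folds of the desflurane liver given above include the latter shift. Both 6 h livers were above both controls in 7 of the 26 members (26.9%) and below both in 3 (11.5%), compared with 32.8% and 13.4% of all genes, which is no more than the background.

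**Figure D4:**
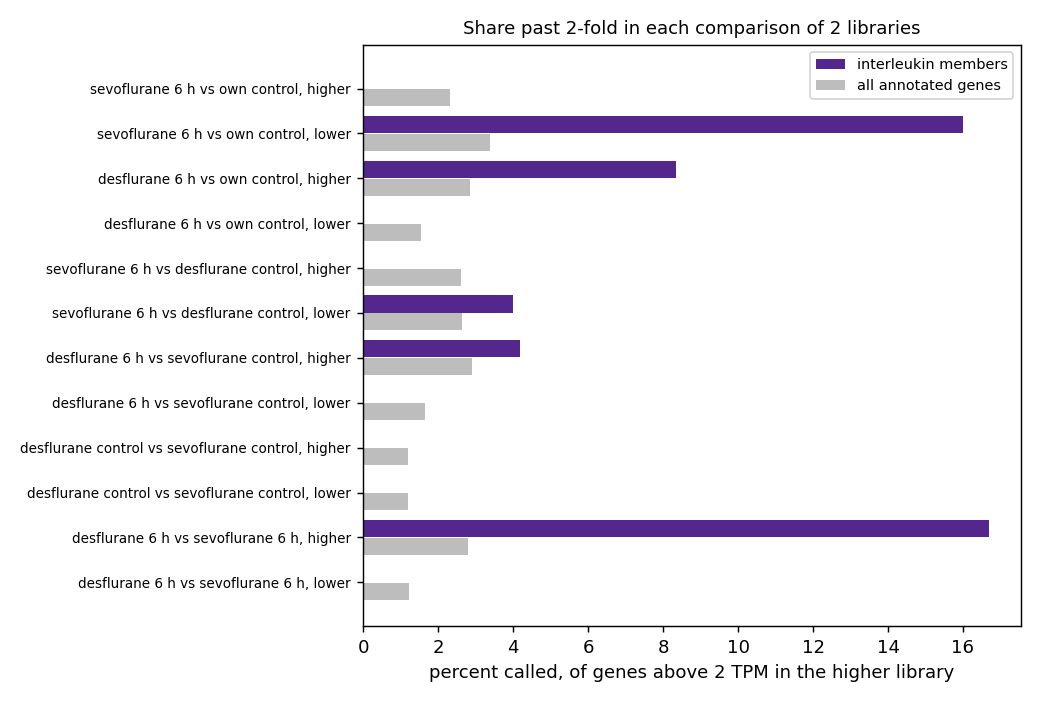
Percent of interleukin genes and of all annotated genes called in each comparison of 2 libraries, among genes above 2 TPM in the library named as the higher one. The members stand above all genes for lower values after sevoflurane (16% against 3.38%) and for higher values in the desflurane 6 h than in the sevoflurane 6 h liver (16.7% against 2.8%), and the difference is small in the comparisons with the control of the other agent.

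Downstream of the receptors, 17 kinases, STAT factors, and adaptors were all present in the files. Against the own control, 12 of the 17 had lower values with sevoflurane and 10 of the 17 had higher values with desflurane. Of all genes with a mean above 1 TPM, 43.8% were lower and 66.0% were higher in these comparisons, so the count for desflurane is no more than the background. With desflurane 0 of the 17 were called in either direction, compared with 2.84% of all genes higher and 1.53% lower. *Stat3*, which relays IL-6, had 45.5, 65.5, 39.1, and 52.1 TPM and was higher in both 6 h livers than in both controls, with fold changes of 1.44 and 1.332. The same order was found in 32.8% of all genes with a mean above 1 TPM. Of 12 feedback inhibitors in the files, 2 fell with each agent, compared with 3.38% of all genes with sevoflurane and 1.53% with desflurane. These were *Socs3* (15.2, 3.74, 24.2, and 9.76 TPM) and *Cish* (21.9, 3.63, 70.0, and 8.397 TPM), which are induced by STAT factors and restrain them. Against the other control 3 of the 12 fell with sevoflurane and 1 with desflurane, compared with 2.64% and 1.64% of all genes. *Cish* was again called with both agents, and *Socs3* with sevoflurane but not with desflurane (0.644). *Socs2* (38.8, 20.3, 96.4, and 61.2 TPM) was called with sevoflurane against the other control only, with a fold change of 0.211 there and 0.524 against the own control. Of 6 genes for the processing of IL-1 family precursors, 2 fell with sevoflurane and 0 with desflurane, and of all genes 3.38% and 1.53% fell. These were *Casp1*, the protease that matures IL-1 beta and IL-18, with 10.5, 5.22, 6.03, and 5.29 TPM, and *Nlrc4*, an inflammasome sensor, with 2.102, 1.04, 1.55, and 1.41 TPM. Neither was called against the desflurane control, where the fold changes with sevoflurane were 0.866 and 0.672. Regardless of the limit, 5 of the 6 processing genes were lower than in the own control with each agent. Of all genes with a mean above 1 TPM, 43.8% were lower with sevoflurane and 34% with desflurane. Against the other control, 5 of the 6 were lower with sevoflurane and 4 with desflurane.

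Of 16 related cytokines and receptors without an Il symbol, 1 rose with each agent, compared with 2.3% and 2.84% of all genes. With sevoflurane it was *Cntf* (1.18, 2.41, 2.70, and 1.57 TPM), and with desflurane *Clcf1* (1.14, 2.20, 1.31, and 4.26 TPM), and both encode ligands that signal through gp130. Against the other control *Cntf* had a fold change of 0.896, the opposite direction, and *Clcf1* of 3.75. Of 16 acute phase genes that respond to IL-6, 1 rose and 1 fell with sevoflurane and 0 rose and 2 fell with desflurane. Of all genes, 2.3% rose and 3.38% fell with sevoflurane, and 2.84% rose and 1.53% fell with desflurane. The called genes were *Hamp*, which encodes hepcidin and had 1487, 458, 893, and 30.4 TPM, and *Lcn2*, which had 3.44, 12.7, 18.5, and 5.92 TPM. The controls of *Lcn2* were far apart, and against the other control its direction turned, with fold changes of 0.688 instead of 3.70 for sevoflurane and 1.72 instead of 0.320 for desflurane. For *Hamp* the fold changes against the other control were 0.512 with sevoflurane, which is not past the limit, and 0.0204 with desflurane. For these 16 genes the log2 changes had a median of -0.01 after sevoflurane and 0.08 after desflurane. With desflurane 12 of the 16 had higher values than in the own control, compared with 66.0% of all genes with a mean above 1 TPM. None of them rose 2-fold, and the largest fold changes were 1.75 for *Serpina3n* and 1.72 for *A2m*. The fold change of *Il6r* with desflurane was 2.27 against the own control and 1.73 against the other one.

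Markers of the cell types that make or receive interleukins moved along with some of these results. The 6 hepatocyte markers were abundant in every library, with sums between 140857 and 155680 TPM, and none of them was called. Of all genes, 3.38% fell by the rule with sevoflurane against the own control and 2.64% against the desflurane control. Of all genes with a mean above 1 TPM, 43.8% were lower after sevoflurane than in the own control and 42.8% than in the desflurane control. All 11 markers of Kupffer cells and macrophages in the files were lower after sevoflurane than in the own control, and all 11 were lower than in the desflurane control. By the rule 4 of them fell (2 against the desflurane control). The sum of the 11 was 809, 485, 641, and 757 TPM. Of 13 markers of T and NK cells, 11 were lower after sevoflurane than in the own control and 8 than in the desflurane control. By the rule 4 of them fell (1 against the desflurane control). The sums of the 13 were 37.7, 25.3, 34.2, and 37.0 TPM, of which *Cd4* gave 19.1, 18.3, 21.8, and 23.3 TPM. Among these markers only *Cd4*, *Cd8a*, *Gzma*, *Nkg7*, and *Prf1* were above 2 TPM in the sevoflurane control and thus able to fall by the rule. The T cell genes *Cd3d*, *Cd3e*, and *Cd3g* were below 1 TPM in all libraries. The 4 B cell markers summed to 6.17, 2.33, 3.20, and 3.15 TPM. With sevoflurane 1 of them fell, *Cd79b*, and no other was above 2 TPM in any library. The 5 neutrophil markers summed to 2.82, 2.58, 3.95, and 1.22 TPM. None of them was above 2 TPM in any library, so the rule could not call them. Sums for the 5 endothelial markers were 181, 168, 176, and 197 TPM, those for the 7 stellate and fibroblast markers 279, 292, 305, and 310 TPM, and those for the 3 cholangiocyte markers 11.6, 12.5, 16.9, and 11.0 TPM, with no call against the own control in these 3 lists. Of the cholangiocyte markers only *Epcam* was above 2 TPM and able to be called. The ligands *Il33*, *Il18*, and *Il15* and the chains *Il2rb* and *Il2rg* were lowest in the same library as the sum of the macrophage markers. That library, sevoflurane 6 h, also had the lowest sums of the hepatocyte, T and NK cell, B cell, and endothelial markers. Sums of the neutrophil, stellate and fibroblast, and cholangiocyte markers were lowest elsewhere. *Il1b* was not lowest there either, with 2.34 TPM compared with 2.26 TPM in the desflurane control. The part of cell numbers in all these values was not tested.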

How the data were processed

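Liver RNA from 4 rats was sequenced after rRNA depletion, with 1 library per condition, and conditions were taken from the labels. The authors trimmed the reads with sickle, mapped them to rn6 with HISAT2, and ran StringTie with the refGene annotation. The deposited tables give per gene a coverage (a signal, not normalized for library size), FPKM values, and TPM values. The authors' StringTie run scaled the TPM signal so that the assembled rows add up to 1000000, and annotated rows are on the same scale. Whether reads were counted by strand is not given in the sources used here.

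Annotated rows above 200 base pairs were used here, and rows of 1 symbol were summed, which left 16992 genes. Every member had 1 row. Depth, which follows from coverage and FPKM, was 4.47 to 5.40 Gb of aligned sequence per library, and read counts were not used, so that no counting intervals were calculated. Members and gene lists were chosen with earlier results of these data known. Members above 1 TPM in at least 1 library were named, with 6 others and *Il22ra1*. With 1 library per condition, an agent could not be tested against its control, and agents were not pooled. One result on a signaling gene is not reported here. The calling rule (TPM above 2 and more than 2-fold) was tested on simulated data for errors in the code, which says nothing about the spread between livers. Alternatives covered the control, the TPM and fold limits, a pseudocount, scaling, FPKM, coverage above 5, length, and, added after the data had been seen, assembled rows and the scaling of directions. Promoters were those of RefSeq (GRCr8), and 57 of 73 members matched by symbol. Python 3.11.15, numpy 2.4.6, pandas 2.3.3, and matplotlib 3.10.9 were used.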

Additional observations from a re-analysis of the deposited data

Results flagged for a closer look

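In 4 members, 1 of the agents passed the 2-fold limit against its own control and the value with the other agent lay on the opposite side of its own control. The fold change with desflurane exceeded that with sevoflurane 5.06-fold for *Il15*, 4.0-fold for *Il1b*, 2.79-fold for *Il33*, and 2.62-fold for *Il18*. Each agent has 1 liver per state, so this difference was not tested in these libraries. For *Il33*, the paper reported a fall specific to sevoflurane by quantitative PCR on replicate rats, with each agent set against its own control. Those measurements were not part of the data used here. For *Il33* the desflurane value was 1.01 of its control, and 0.929 after median-of-ratios scaling, which is the direction of sevoflurane. The opposite directions were not found against the control of the other agent, where the desflurane fold changes of *Il15*, *Il33*, and *Il18* were 0.942, 0.644, and 0.734 and the sevoflurane fold change of *Il1b* was 1.04. For *Il15*, *Il1b*, *Il33*, and *Il18*, in this order, the level in the desflurane control was 0.648, 0.503, 0.635, and 0.592 of that in the control for sevoflurane. Without any control, the desflurane 6 h liver exceeded the sevoflurane 6 h liver 3.28-fold, 2.01-fold, 1.77-fold, and 1.55-fold in the same order.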

How the results depend on the processing

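The 4 members lower with sevoflurane were 1 with the control of the other agent, 2 with the mean of both controls (*Il15* and *Il33*), 21 without a TPM limit, 10 at 1.5-fold, and 2 with 1 TPM added to each value. The 0 members higher with sevoflurane were 1 without a TPM limit and 1 at 1.5-fold. The 0 members lower with desflurane were 2 at a limit of 1 TPM, 12 without a TPM limit, and 1 on assembled rows (*Il7*). The 2 members higher with desflurane were 1 with the control of the other agent, 0 with the mean of both controls, 9 without a TPM limit, 6 at 1.5-fold, 1 each with 1 TPM added, with median-of-ratios scaling, and with FPKM, and 4 on assembled rows. The cause of these shifts was not tested. The other 41 values of the counts and medians, among them the number of members above 1 TPM under all 5 alternatives, stayed within 1.5 times of the reported count or, for the median of all members, moved by less than 0.1 on the log2 scale. The highest assembled row of each locus was read, and some loci were split differently between libraries (for *Il16*, 812 bases in the desflurane control and 12418 after 6 hours). The 4 on assembled rows were *Il16*, *Il36b*, *Il3ra*, and *Il6r*, and the 4 lower with sevoflurane there were *Il15*, *Il1a*, *Il22ra1* (named after its values were seen), and *Il2rg*. Among single members, *Il15* stayed past the limit under all 6 alternatives, *Il33* and *Il6r* under 4, *Il18* and *Il2rg* under 2, and *Il1b* under 0, and no direction was reversed. In FPKM *Il2rg* had a fold change of 0.422 and was not called because its values were under the limit of 2. No paired analysis was possible because each agent is compared with its control over 1 library a side. Coverage below 3 in the sevoflurane 6 h library limits *Il7*, *Il16*, *Il17b*, *Il21r*, *Il13ra2*, and *Il2rg*.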
